A study of Mus musculus with 24 samples.

Results

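The genes described here encode the kinases and ubiquitin ligases that act on clock proteins after they are made: the casein kinases Csnk1d and Csnk1e, the kinase Gsk3b, and the F-box proteins Btrc, Fbxw11, Fbxw7 and Fbxl21. They are 7 of 22350 protein-coding genes on chromosomes 1 to 19 and X in GENCODE vM1 (mouse build mm9, NCBIM37), and they were chosen by function, with no measured value in the rule. Earlier results of these data were known when they were chosen. For each gene, every deposited binding site of the nuclear receptor Rev-erbα was taken from a window that runs from 20 kb upstream to 20 kb downstream of the gene body. The study mapped Rev-erbα, HDAC3 and ROR receptors in 24 mouse samples in 16 groups. Of these, 5 samples in 3 groups were used, all with an antibody to Rev-erbα. They are ChIP-seq of epididymal white fat (eWAT, 2 libraries), ChIP-seq of the ventral tegmental area, called brain here (1 library), and liver ChIP-exo (2 libraries). In all 3 groups the mice were C57BL/6J wild type on the C57BL/6 strain and were sampled at zeitgeber time 10, that is 10 h after lights on. The sources used here do not give the age of the mice or say whether animals were pooled.

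Each group came as 1 list of sites with no columns for replicates, so no spread between replicates could be computed, no test was run, and the depth behind each list is unknown. There were 9016 peaks in eWAT and 10687 in brain, each 150 bp wide with a score from the authors. The scores lay within 0.06 score units of whole multiples of 1.01 in eWAT and 3.636 in brain, steps that were chosen to meet this limit. Their unit is not defined, and they were used only to rank peaks within a list, with rank 1 the highest. ChIP-exo trims the crosslinked DNA with an exonuclease, so the liver list gives 245086 borders, each a single base and strand with a signal and a p-value from the authors. A plus-strand border followed by a minus-strand border 5 to 60 bp downstream was counted as a pair, which gave 26535 pairs in the genome. Pairs can share a border. The lists record binding and no RNA, so the tissue labels were not checked against markers. In whole tissue, binding in fewer cells and weaker binding per cell cannot be told apart.

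In the clock's feedback loop, casein kinases 1δ and 1ε phosphorylate the PER repressors. The ligase subunits β-TrCP1 (Btrc) and β-TrCP2 (Fbxw11) recognise the phosphorylated PER proteins and direct them to the proteasome, while FBXL21 ubiquitinates the CRY repressors. Rev-erbα protein is itself a target: GSK3β phosphorylates and stabilises it, and FBXW7 is a ligase that degrades it. Rev-erbα represses genes through a ROR response element or together with other factors bound to DNA, and several core clock genes are among its known targets.

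The windows of these genes held 5 eWAT peaks, 9 brain peaks and 193 liver borders, and most of the peaks were of middle or low rank. An eWAT peak lay in the window of 3 of 7 genes (Btrc, Fbxw11 and Fbxw7), beside 28.7% of all genes. A brain peak lay in the window of 5 of 7 genes (Csnk1e, Gsk3b, Btrc, Fbxw11 and Fbxw7), beside 41.5%. A liver border pair lay in the window of 7 of 7, beside 51.0%. Csnk1d and Fbxl21 had neither an eWAT nor a brain peak. With 7 genes, shares this far apart rest on 1 or a few genes and no excess or deficit is read from them.

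Long genes have long windows, and 4 of the 7 (Gsk3b, Btrc, Fbxw11 and Fbxw7) are at least 100 kb long. The median gene length was 104.1 kb, against 15.4 kb for all genes. Among these 4, an eWAT peak lay in 3 windows, a brain peak in 4 and a liver pair in 4. Of all 2399 genes of at least 100 kb, 52.2% had an eWAT peak, 58.1% a brain peak and 63.0% a liver pair. Per 100 kb of window the 7 genes together had 0.527 eWAT peaks against 0.521 for all genes, 0.948 brain peaks against 0.834, 20.3 liver borders against 16.8, and 2.11 liver pairs against 1.88. Csnk1e alone had 3 of the 9 brain peaks. Of the 193 borders, Gsk3b had 62, Btrc 33, and Csnk1d and Fbxw11 29 each. Border density ran from 7.85 per 100 kb at Fbxw7 to 39.8 at Csnk1d, and Btrc, at 15.7, was also below the value for all genes. These sums cover 7 genes and no test was run, so no excess is read from them.

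**Figure D1:**
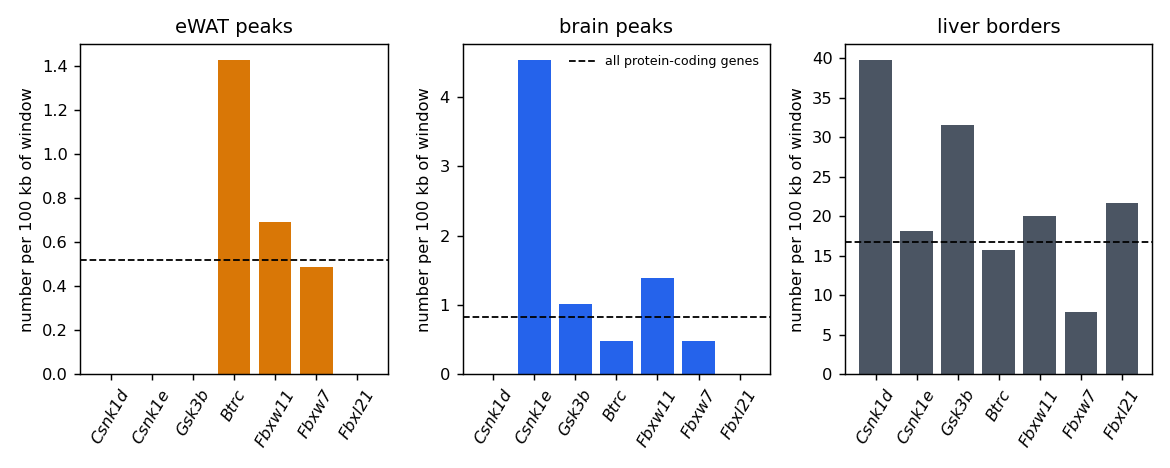
Sites per 100 kb of window for each of the 7 genes, in 3 panels for eWAT peaks, brain peaks and liver borders, each with its own vertical axis starting at 0; bars are single values from 1 list and the dashed line is the value over all protein-coding genes. Btrc had the highest eWAT bar, Csnk1e the highest brain bar and Csnk1d the highest liver bar, while Csnk1d and Fbxl21 had no bar in eWAT or brain.

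Near the starts, the counts of peaks and borders differed between the lists. No member had an eWAT peak within 10 kb of an annotated start (0 of 7, beside 14.2% of all genes). Csnk1e, Gsk3b and Fbxw11 had a brain peak there (3 of 7, beside 27.9%). All 7 genes had 2 or more liver borders within 1 kb of a start, beside 45.8% of all genes, and the median was 5 borders per gene against 1. Genes with more annotated starts have more sequence to hold such borders, and these 7 have between 1 and 11 starts each. The cut of 2 equals the lowest count of the 7, that of Fbxw11, so 7 of 7 follows from the cut. At the first start alone Csnk1e had 0. None of these borders at Btrc or Fbxw7 had a p-value up to 0.01. No excess is read from these counts.

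The sequences that the following accounts turn on are printed here, 5′ to 3′ on the plus strand of mm9. In the peaks, capitals mark the motif named for each sequence, on either strand. Other matches stay in lower case, such as the CCAAT box that ends the first sequence. In the liver pairs, printed with 10 bp on each side, capitals mark the bases from the plus border to the minus border. The first is the end of the fat peak near Fbxw11 that holds an E-box (chr11:32523464-32523486), from the one site that fat and brain shared. The next 4 are brain peaks: the one just before the Fbxw11 start with an ETS core (chr11:32542462-32542611), the part of the Gsk3b peak that precedes its start with a CCAAT box (chr16:38089022-38089086), the Csnk1e peak with 3 GC boxes (chr15:79272558-79272707), and the Btrc peak of the highest brain score of the set, with a GC box (chr19:45616259-45616408). The sixth is the one peak of the 14 with a receptor half-site, a fat peak in Btrc (chr19:45465928-45466077). The last 3 are liver pairs: the strongest of the set, near Csnk1d (chr11:120856217-120856256), the strongest in Gsk3b (chr16:38097699-38097761), and the pair just before the start of Btrc (chr19:45438078-45438122).
Fbxw11 fat E-box: tctgctgcctagCACGTGccaat
Fbxw11 brain peak: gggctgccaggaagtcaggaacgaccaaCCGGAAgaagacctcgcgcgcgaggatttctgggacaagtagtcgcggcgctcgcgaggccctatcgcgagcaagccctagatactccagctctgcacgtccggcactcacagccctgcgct
Gsk3b brain peak before the start: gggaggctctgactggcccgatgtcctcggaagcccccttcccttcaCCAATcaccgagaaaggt
Csnk1e brain peak: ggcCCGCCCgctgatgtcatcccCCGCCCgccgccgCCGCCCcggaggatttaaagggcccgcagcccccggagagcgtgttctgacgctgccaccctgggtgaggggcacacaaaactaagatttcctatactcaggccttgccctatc
Btrc brain peak: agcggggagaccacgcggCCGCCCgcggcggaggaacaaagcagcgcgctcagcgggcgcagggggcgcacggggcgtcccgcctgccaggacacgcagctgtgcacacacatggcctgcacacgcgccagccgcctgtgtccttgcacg
Btrc fat peak with half-site: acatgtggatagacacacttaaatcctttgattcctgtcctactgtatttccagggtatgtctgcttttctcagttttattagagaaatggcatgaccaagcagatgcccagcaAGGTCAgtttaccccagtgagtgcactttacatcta
Csnk1d liver pair: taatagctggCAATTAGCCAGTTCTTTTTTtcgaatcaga
Gsk3b liver pair: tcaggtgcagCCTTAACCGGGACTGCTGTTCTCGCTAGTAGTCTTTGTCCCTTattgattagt
Btrc liver pair: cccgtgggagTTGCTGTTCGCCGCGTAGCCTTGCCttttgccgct

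**Figure D2:**
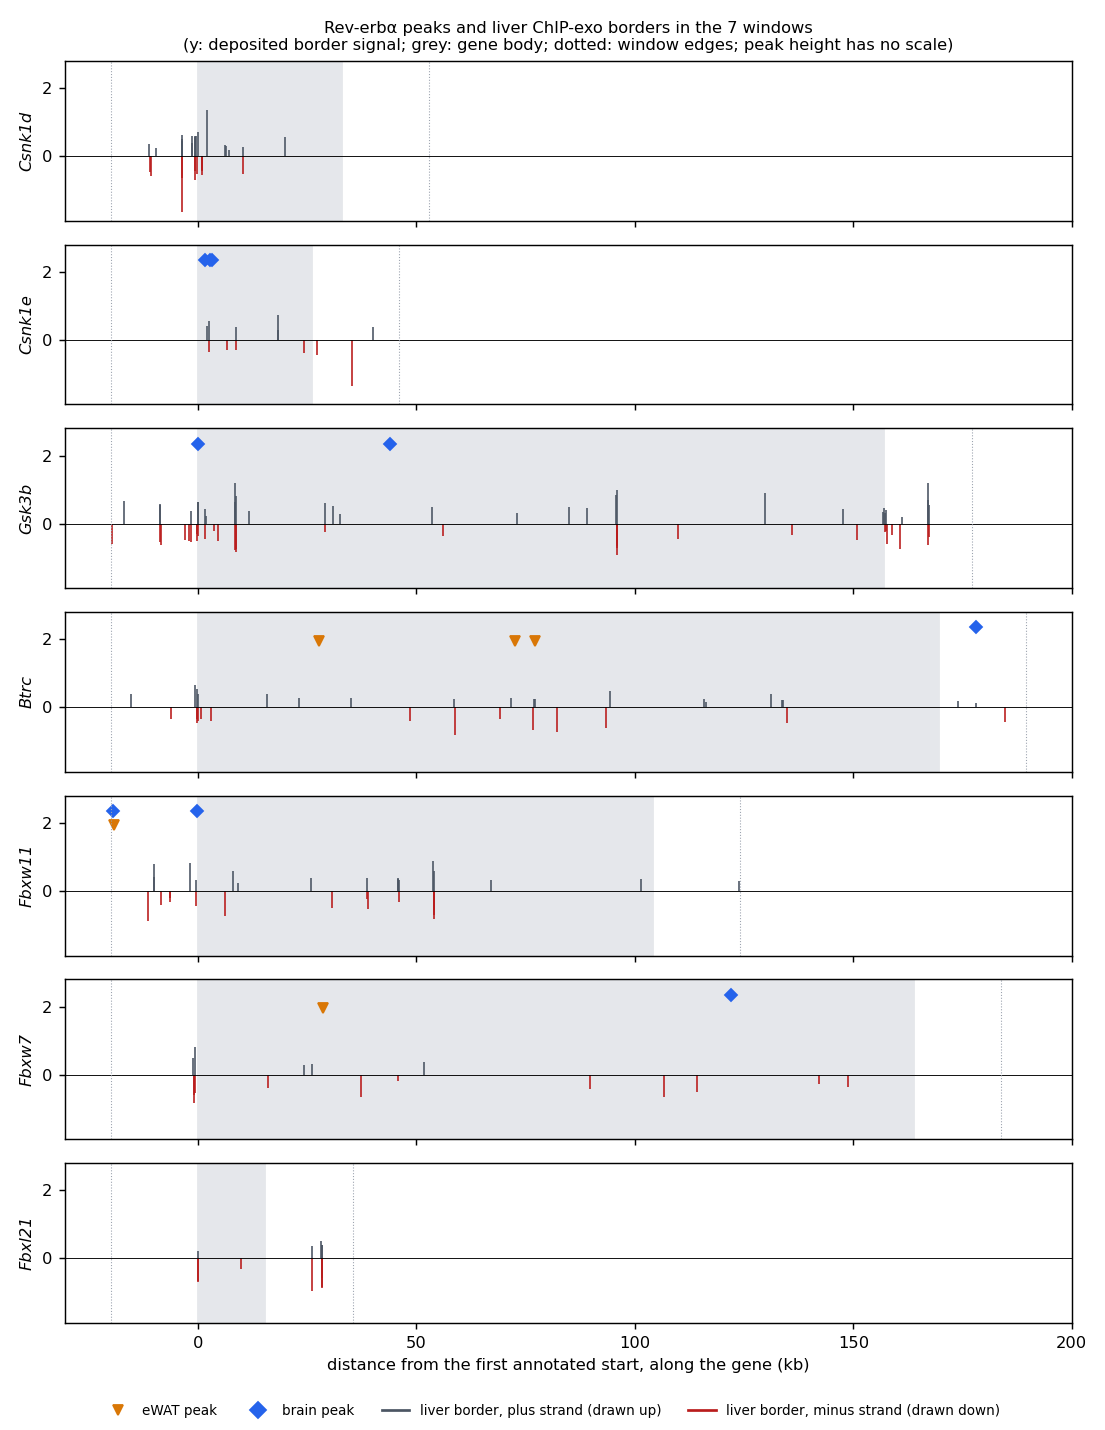
Position of every site in the window of each of the 7 genes, drawn as distance in kb from the gene's first start with the gene pointing to the right; triangles are eWAT peaks and diamonds brain peaks, with no scale for height, bars are liver borders with the deposited signal as height (up for the plus and down for the minus strand of the genome), grey is the gene body and dotted lines are the window edges. The 5 eWAT and 9 brain peaks lie in 5 of the windows, and the 193 borders are spread over all 7.

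Csnk1d, which encodes casein kinase 1δ, lies on the minus strand at chr11:120819779-120852644 (ENSMUSG00000025162.10, 32.9 kb, 9 transcripts). Its window of 72.9 kb held no eWAT and no brain peak. The nearest eWAT peak lay 52914 bp from the gene (score 26.3) and the nearest brain peak 68999 bp away (score 25.5), and the start nearest to each was that of Ccdc57. In liver the same window held 29 borders, 18 on the plus and 11 on the minus strand, or 39.8 per 100 kb, the highest density of the 7. Of these, 19 lay upstream of the gene, 10 in its body and 0 downstream. Within 1 kb of the first start there were 10 borders, with signals of 0.399 to 0.716, and 0.438% of all genes had as many at their first start. None of these 10 had a p-value up to 0.01, and the list itself runs up to 0.05. Counted within 1 kb of any of its starts, as for the other genes below, there were 11, and 2.09% of all genes had as many. This gene was singled out after its values were seen.

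The borders of Csnk1d had middling signals, from 0.194 to 1.65 with a median of 0.53, where the median of the whole list was 0.471 and its highest value 257. The strongest, on the minus strand 3602 bp upstream of the start, was at rank 8552 of 245086 and was the strongest border in any of the 7 windows. It formed the right side of the pair printed above, whose borders at 120856227 and 120856246 had signals of 0.4898 and 1.6464. Their sum of 2.14 was at rank 6304 of 26535 pairs. The other 4 pairs lay 82, 632, 638 and 3662 bp upstream of a start and had sums of at most 1.31. All 5 pairs were thus intergenic and upstream of the gene. The pairs at 632 and 638 bp share their minus border.

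Csnk1e, which encodes casein kinase 1ε, lies on the minus strand at chr15:79248282-79274349 (ENSMUSG00000022433.11, 26.1 kb, 12 transcripts with 11 starts). It had 3 brain peaks and no eWAT peak, the nearest eWAT peak lying 284873 bp away near Sun2. The peak at chr15:79271573-79271722 scored 29.1, at rank 4034, a rank shared by 1135 peaks. The peaks at chr15:79271038-79271187 and chr15:79272558-79272707 both scored 25.5, at rank 5169. All 3 lay in introns, 601 and 1136 bp downstream and 200 bp upstream of the nearest Csnk1e start. These 3 peaks gave the highest brain density of the set, at 1 gene with 3 closely spaced and low-ranked peaks.

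The 2 casein kinases differed in liver by count. Csnk1e had 12 borders in its window, 6 on each strand, or 18.2 per 100 kb, with signals of 0.292 to 1.37. It had 5 borders within 1 kb of any of its starts, and 24.5% of all genes had as many, but 0 within 1 kb of the first start. A single pair, at 79271714 and 79271761, lay in an exon 511 bp downstream of a start with a summed signal of 0.902 (rank 21442). Its plus border, with a signal of 0.5413, lay 67 bp from the centre of the highest-scoring brain peak of the gene. The strongest border, at rank 13638, lay in the downstream flank.

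Gsk3b encodes glycogen synthase kinase 3β and lies on the plus strand at chr16:38089087-38246170 (ENSMUSG00000022812.7, 157.1 kb, 4 starts). It had 2 brain peaks and no eWAT peak, the nearest eWAT peak lying 99054 bp away with a score of 10.1, the lowest of its list, near Cox17. The brain peak at chr16:38089022-38089171 was centred 9 bp past the first base of the gene and scored 29.1 (rank 4034). The other, at chr16:38132977-38133126 in an intron, scored 21.8 (rank 6985, shared by 2984 peaks) and lay 10366 bp upstream of an internal start. The peak at the start was the one among the 14 with more than 1 liver border within 100 bp of its centre. Those 3 borders lay at 38089086 and 38089174 on the plus strand, with signals of 0.6228 and 0.6424, and at 38089162 on the minus strand, with a signal of 0.3632.

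In liver Gsk3b had the most borders of the 7 genes, 62 with 31 on each strand, or 31.5 per 100 kb, of which 36 lay in the gene body and 13 in each flank. Within 1 kb of its starts there were 10, and 2.95% of all genes had as many. It also had the most pairs, 6. The strongest, at 38097709 and 38097751 had signals of 0.8036 and 0.74 (sum 1.54, rank 11468). The pair is intronic, with its borders 8622 and 8664 bp past the first start and its centre 7356 bp past the nearest, internal start. Its printed sequence holds TATTGAT, a match to the core that HNF6 binds, which begins at the minus border. One of the 6 pairs lay in an intron of the neighbouring gene Nr1i2, a xenobiotic receptor gene that the downstream flank reaches. Across the kinases, the liver lists were the fullest at Csnk1d and Gsk3b and brain peaks lay at the starts of Csnk1e and Gsk3b, while the fat list had no peak in any of the 3 windows.

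**Figure D3:**
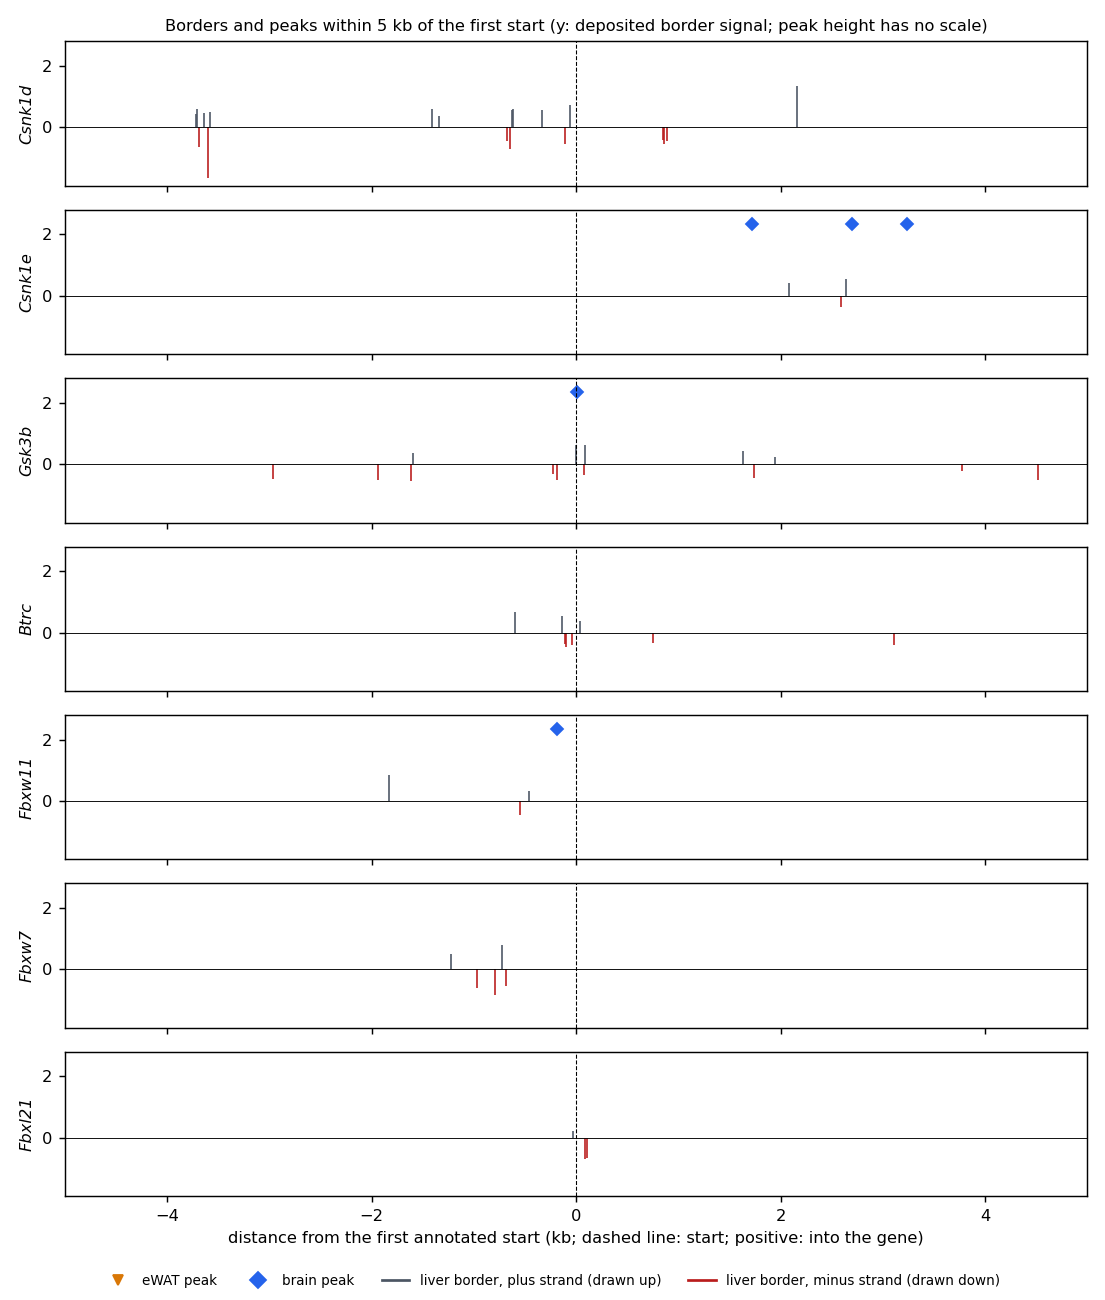
Sites within 5 kb of the first start of each gene, drawn as distance from that start in kb with the gene to the right; diamonds are brain peaks, with no scale for height, and bars are liver borders with the deposited signal as height, up for the plus and down for the minus strand of the genome. No eWAT peak falls in this range. Within 1 kb of the first start Csnk1d has 10 borders, Btrc 7 and Gsk3b 5, and Csnk1e has 0.

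Btrc encodes β-TrCP1 and lies on the plus strand at chr19:45438224-45607831 (ENSMUSG00000025217.7, 169.6 kb, 1 start). It had 3 of the 5 eWAT peaks, all in introns far from its start. The peak at chr19:45510650-45510799 scored 14.2 (rank 4438), the one at chr19:45515388-45515537 scored 11.1 (rank 6686), and the one at chr19:45465928-45466077 scored 10.1 (rank 7806, shared by 1211 peaks at the floor of the list). They lay 72500, 77238 and 27778 bp downstream of the Btrc start, and for the first 2 the nearest annotated start was that of Gm6807, inside the gene. The second had a plus-strand liver border 58 bp from its centre, with a signal of 0.2448. The single brain peak, at chr19:45616259-45616408, lay 8502 bp past the end of the gene, with the start of Poll, a DNA polymerase gene, 18688 bp away. It had the highest brain score of the set, 36.4 (rank 2367), and a GC content of 74.7%, and a plus-strand liver border of signal 0.1206 lay 20 bp from its centre.

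Liver borders in the Btrc window numbered 33, or 15.7 per 100 kb, with signals of 0.121 to 0.802. Of these, 7 lay within 1 kb of the start, and 10.9% of all genes had as many near a start. The 1 pair lay 124 bp upstream of the start, at 45438088 and 45438112, with a summed signal of 0.901 (rank 21467). Of the 33 borders, 23 lay in the gene body, 7 upstream and 3 downstream. The fat peaks of Btrc thus lay in introns, its brain peak past the gene end and its liver pair at the start, while single liver borders lay near 1 fat peak and the brain peak.

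Fbxw11, the paralogue that encodes β-TrCP2, lies on the plus strand at chr11:32542724-32646816 (ENSMUSG00000020271.10, 104.1 kb, 7 starts). It had the one site of the 14 peaks that fat and brain shared, 19.3 kb upstream of its start, where the eWAT peak at chr11:32523337-32523486 overlapped the brain peak at chr11:32523307-32523456. The eWAT peak scored 36.5, at rank 635, the highest eWAT score of the set, while the brain peak scored 21.8, at rank 6985. Of all eWAT peaks 7.83% overlapped a brain peak, and of all brain peaks 6.61% overlapped an eWAT peak, beside 1 of 5 and 1 of 9 here. The site falls in the last exon of the neighbouring gene Stk10, in its 3′ UTR, although the nearest start is that of Fbxw11. The E-box printed above lies in the eWAT peak beyond the end of the brain peak, and the nearest liver border was 4398 bp from the eWAT centre.

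A further brain peak of Fbxw11, at chr11:32542462-32542611, lay 188 bp upstream of the start and scored 29.1 (rank 4034), with a liver border 268 bp from its centre. In liver the window held 29 borders, or 20.1 per 100 kb, and 2 of them lay within 1 kb of a start, the lowest such count of the 7, which 45.8% of all genes reached. Its 5 pairs lay in introns, 38479 to 53797 bp from a start. The strongest, at 32596635 and 32596665, had signals of 0.878 and 0.7145 (sum 1.59, rank 10896). In these lists the Fbxw11 start had a brain peak and no liver pair within 10 kb, and the Btrc start had a liver pair and no brain peak. This contrast rests on 1 brain peak, at a rank shared by 1135 peaks, and 1 pair at rank 21467 of 26535. No difference between the 2 β-TrCP genes is read from it.

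Fbxw7, which encodes the ligase subunit that recognises Rev-erbα as well as other phosphorylated proteins, lies on the plus strand at chr3:84619190-84783120 (ENSMUSG00000028086.8, 163.9 kb, 5 starts), inside an annotated Arfip1 gene on the opposite strand. It had 1 peak in each list, both in introns and at different places. The eWAT peak at chr3:84647636-84647785 scored 11.1 (rank 6686) and the brain peak at chr3:84741022-84741171 scored 21.8 (rank 6985). They lay 20357 bp upstream and 11694 bp downstream of the nearest Fbxw7 start, with no liver border within 100 bp. The window held 16 borders, 5 on the plus and 11 on the minus strand, or 7.85 per 100 kb, the lowest density of the 7. Its strongest border lay 796 bp upstream of the first start (rank 45785). The 1 pair, at 84618466 and 84618508, lay 703 bp upstream with signals of 0.8073 and 0.5512 (sum 1.36, rank 13975). So at Fbxw7 the strongest liver sites were near the start and the fat and brain peaks were not.

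Fbxl21, the CRY ligase gene, lies on the plus strand at chr13:56623833-56639259 (ENSMUSG00000035509.10, 15.4 kb, 5 starts). Its window held no eWAT and no brain peak. The nearest eWAT peak lay 97118 bp away (score 19.2, near Tgfbi) and the nearest brain peak 227323 bp away (score 32.7, near Cxcl14). There were 12 liver borders, or 21.7 per 100 kb, with signals of 0.226 to 0.958, and 8 of them lay downstream of the gene. The 1 pair, at 56649914 and 56649941, was among these, 26036 bp from the nearest Fbxl21 start (sum 1.32, rank 14573). Within 1 kb of a start there were 3 borders, and 39.3% of all genes had as many.

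Taking the sites of the 7 genes as one set, 1 of 5 eWAT peaks scored above the median of its list (4437 of 9016 did overall), with a median of 11.1 against 14.2. In brain 4 of 9 did (5168 of 10687 overall), with a median of 25.5 in both. The highest scores were 36.5 in eWAT and 36.4 in brain, where the lists reach 281.6 and 516.3. Among eWAT peaks 1 of 5 had a liver border no more than 100 bp from its centre, beside 30.0% of the list, and among brain peaks 3 of 9 did, beside 36.4%. Of the 193 borders, 46.6% had a signal above the list's median. The 20 pairs had a median summed signal of 1.11 against 1.41 for all pairs, with 3 of 20 above that median, and a median gap of 26.5 bp against 29. By median score or signal the sites near these genes were thus at or below the middle of each list. Some sites lay well above it, such as the Fbxw11 eWAT peak at rank 635.

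The genes whose proteins these enzymes act on are shown beside them as a description, chosen after their values were seen. Per1, Per2, Per3, Cry1, Cry2, Nr1d1 and Nr1d2 (the last 2 encode Rev-erbα and Rev-erbβ) had an eWAT peak in 7 of 7 windows (28.7% of all genes) and a brain peak in 7 of 7 (41.5%). Their best peaks were at ranks 1 to 1205 in eWAT (median 13) and 1 to 130 in brain (median 9). The best peaks of the kinases and ligases were at ranks 635 to 6686 in eWAT (3 genes, median 4438) and 2367 to 6985 in brain (5 genes, median 4034). In brain the ranges of the 2 sets did not overlap, and in eWAT they overlapped through Per3, at rank 1205, and Fbxw11. These ranges leave out the genes with no peak. Csnk1e, Gsk3b and Fbxw11 share the brain rank 4034, which 1135 peaks hold. The best ranks of all genes are not given here, so no result about the kinases and ligases is read from the ranges.

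Another 25 genes of clock kinases, phosphatases, ligases and deubiquitinases had an eWAT peak in 8 windows (28.7% of all genes), a brain peak in 16 (41.5%) and a liver pair in 20 (51.0%). Their best peaks had median ranks of 3019 in eWAT and 1821 in brain. The best brain rank belonged to Cul4a, a cullin scaffold of ubiquitin ligases, at 184, but that peak lay 19 bp from the start of its neighbour Lamp1, as did its best eWAT peak (rank 307, 39 bp from Lamp1). Dyrk1a, a kinase that phosphorylates CRY2, followed in brain at rank 243, with a peak 504 bp from its own start. Fbxo21 and Csnk2a2 shared rank 771, the latter with a peak nearest to the start of Gtl3, and Skp1a and Usp2 shared rank 1451. In eWAT the best peaks of Usp7 were at rank 1878, of Fbxo21 at 2072, and of Csnk2a1 and Ppp1cb at 3512. That of Csnk2a1 lay 568 bp from the start of its neighbour Tbc1d20. The 25 genes had no rank better than 307 in eWAT or 184 in brain.

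**Figure D4:**
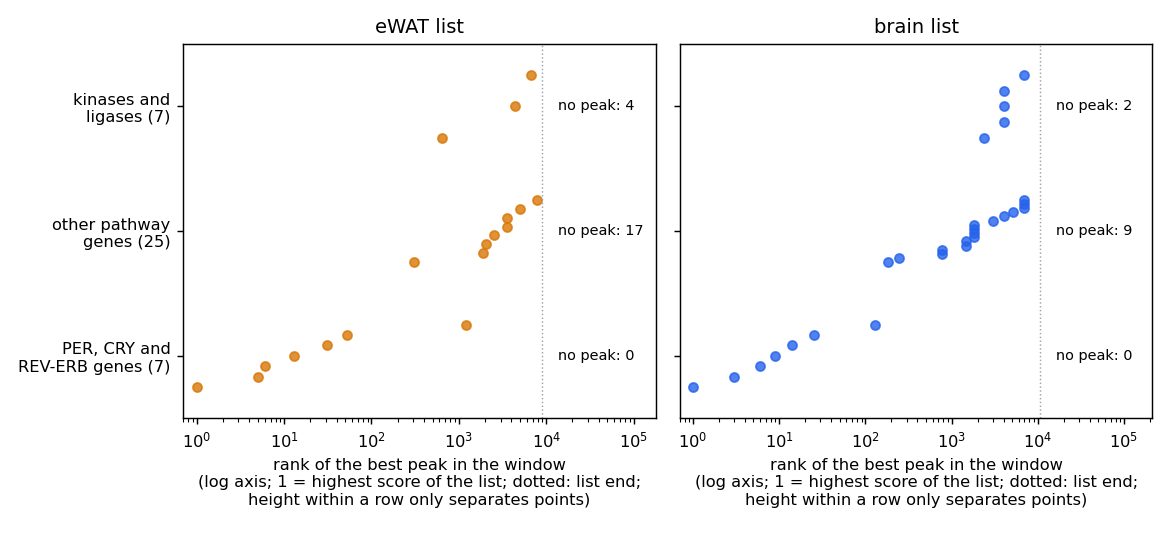
Rank of the best peak in each gene's window (log axis, rank 1 at the left) in the eWAT and brain lists, for the 7 kinase and ligase genes, the other 25 pathway genes and the 7 PER, CRY and REV-ERB genes; 1 point is 1 gene and genes with no peak are counted at the right. The kinase and ligase genes lie at ranks 635 to 6686 in eWAT and 2367 to 6985 in brain, and 4 and 2 of them have no peak.

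Of 10 motifs searched on both strands, 7 of the 14 peaks held at least 1. The receptor half-site AGGTCA was in 1 of 5 eWAT peaks (19% of the list) and 0 of 9 brain peaks (11.7%). The same letters after a T, TAGGTCA, the full ROR response element and the Rev-erb direct repeat, all of which contain the half-site, were in 0 of 14. These are uncommon in the lists too, at 6.21% and 3.28% for TAGGTCA and 1.92% and 1.13% for the ROR response element in eWAT and brain, so their absence from 14 peaks says only that these letters are not there. The E-box CACGTG was in 1 of 5 eWAT peaks (11.4%) and 0 of 9 brain peaks (8.17%). The CCAAT box was in 2 of 5 eWAT peaks (20.6%) and 1 of 9 brain peaks (18.9%). The GC box GGGCGG was in 0 of 5 eWAT peaks (3.72%) and 2 of 9 brain peaks (20.8%), and the ETS core CCGGAA in 0 of 5 (2.62%) and 1 of 9 (8.1%). The HNF6 core TATNGAT was in 0 of 14 (1.6% of the eWAT list and 1.74% of the brain list), as was the C/EBP core TTGCNNAA (18.7% and 5.63%).

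The brain peaks had a median GC content of 62.0%, against 55.3% for the brain list, and the eWAT peaks 46.0% against 48.7%. Of the brain peaks 4 of 9 were within 1 kb of a start of their gene, beside 4047 of 10687 brain peaks within 1 kb of any start. Of the eWAT peaks 0 of 5 were, beside 790 of 9016. In the 20 liver pairs with 10 bp on each side, the CCAAT box occurred in 5 (8.1% of all pairs), the half-site in 2 (7.83%), the HNF6 core in 2 (9.24%), and the C/EBP core in 2 (9.52%). Because pairs share borders, the 5 with a CCAAT box come from 3 places, at Csnk1d, Csnk1e and Fbxw11. The 2 with a half-site are also the 2 with a C/EBP core, and they come from 1 place upstream of Gsk3b.

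RefSeq promoters (GRCm38.p6, 250 bases before to 50 after each start) were matched for 5 of the 7 genes. The shares below are of single promoters, while a gene counts when any of its promoters matches. Csnk1e has 4 promoters and Fbxw7 3, so they have more sequence to hold a match. The CCAAT box, found in 37.4% of all promoters in the table, was in that of Gsk3b. A GC box (35.7% of all) was in promoters of Csnk1e, Fbxw7 and Fbxl21, and an ETS core (14.9%) in those of Fbxw11 and Fbxl21. A C/EBP core (10.8%) was in one of Fbxw7. Neither the half-site (16.3% of all promoters) nor the E-box (7.15%) was found in a promoter of the 5. The Gsk3b and Fbxw11 promoters overlap the brain peaks at those starts, so their motifs are not separate from the ones in the peaks. The Csnk1e brain peak with GC boxes is centred 200 bp upstream of a Csnk1e start. The GC box of the Csnk1e promoters may therefore not be separate either.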

How the data were processed

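Rev-erbα binding was measured by ChIP-seq in eWAT (2 libraries) and brain (1) and by ChIP-exo in liver (2), with 1 deposited list per group; the depth of each list is unknown. The peak score is the authors' own, in a unit the deposited lists do not define. The border signal and the border p-value (0.00503 to 0.05) are the authors', per the file headers. The submitters' processing notes name mm9, Bowtie 0.12.8 (ChIP-seq), Bowtie 1.1.1 (ChIP-exo) and HOMER. The sources used here do not give thresholds, use of inputs or pooling. The inputs and 17 other samples were not analysed here.

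Windows, nearest starts and sequences came from GENCODE vM1 and NCBIM37, whose chromosome names and lengths hold every site. Peaks were counted as shared when they overlapped by at least 1 bp. Counts stand beside the share of all genes or peaks that meet the same rule. The rule for names took every member, up to 6 peaks per member and list, the strongest pair of each window, each border within 100 bp of a named peak, up to 5 other pathway genes per list by rank (1 is not reported here), and the gene whose start is nearest to a named peak. Members and lists were chosen with earlier results of these data known. The counting was tested on simulated data. Python 3.11.15, numpy 2.4.6 and pandas 2.3.3 were used. Alternatives varied the flank, reach, score, border p-value, pair gap, overlap and motif width.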

Additional observations from a re-analysis of the deposited data

How the results depend on the processing

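Of 32 alternative values, 21 stayed within 1.5 times the value reported and 11 did not. Within 10 kb of a start, 0 rather than 3 members had an eWAT peak and 3 rather than 5 a brain peak. With peaks above the median score of their list, 1 member had an eWAT peak, eWAT peaks fell from 5 to 1 and brain peaks from 9 to 4. Where the nearest start had to be the member's, 3 eWAT peaks were left. With borders of p up to 0.01, 2 rather than 7 members had a pair, borders numbered 71 rather than 193, and 1 rather than 4 peaks had a liver border. Within 50 bp of the centre 2 peaks had one. With flanks of 50 kb there were 309 borders. Each of these settings by its construction admits fewer or more sites. The shared site at Fbxw11 was counted under every overlap rule tried, but its 2 peaks overlap over most of their length, so these rules could not drop it. It lies 19313 bp upstream of the start and so falls outside flanks of 10 kb. With those flanks 2 rather than 3 members had an eWAT peak, and there were 4 rather than 5 eWAT peaks. No paired analysis was possible because each group has 1 list with no replicate columns, and leaving out a replicate could not be run. Low-scoring peaks tie in large groups, which limits how finely they rank.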
